A study of Mus musculus with 6 samples.

Results

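The 54 genes described here encode the machinery that separates chromosomes and divides the cell: the spindle checkpoint, the mitotic kinases, the anaphase machinery, the spindle kinesins and microtubule proteins, the kinetochore, condensin and the chromosome surface, and the cleavage furrow. They are a list of names drawn up for these functions, with no measured value in the rule. The list was, however, chosen with earlier results of these data known. The names were matched by symbol to the gene identifiers of the deposited tables. All 54 were found among the 17254 genes measured, and all 54 were among the 12813 genes with enough reads to test. RNA was sequenced from mouse neural stem and progenitor cells grown in N2 medium with EGF and bFGF. There were 3 groups of 2 libraries each: control, PQ and NAC, the latter 2 exposed for 48 h to agents that the labels give by these letters only, without a dose. The series sets out to compare gene expression under different redox potential. The titles carry the library numbers 8 (control), 9 (PQ) and 10 (NAC), then 11, 12 and 13 in the same order, and do not say what the numbers mark. The labels do not tell whether same-group libraries are independent cultures. The p-values therefore speak only of library-to-library spread, which could be technical.

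In mitosis, condensin folds the chromosomes while kinesins and microtubule-binding proteins build the spindle. The kinetochore, a protein plate on each centromere, holds the microtubule ends, and the checkpoint delays anaphase until every kinetochore is attached; a large ubiquitin ligase, the anaphase-promoting complex or cyclosome, then releases separase, and the cleavage furrow closes between the daughter cells. Most of these genes are transcribed mainly in the G2 and M phases, so in a bulk culture their messages are commonly read as a mark of dividing cells. Fewer cells in mitosis and less RNA per cell cannot be told apart in bulk RNA.

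With PQ the mitotic genes fell almost throughout. 52 of the 54 members were lower than in control and 0 were higher at an edgeR adjusted p under 0.05, against 8.80% of all genes tested that were lower and 9.07% that were higher. In all 54 members both PQ libraries lay below both control libraries, which was so for 28.2% of the genes tested. The count of higher members was also 0 at an unadjusted p under 0.05 and with DESeq2 or limma on FPKM. The median member was 1.55-fold lower (median log2 fold change -0.64, against -0.00 over all genes tested), and the range ran from -1.14 for Mki67 to -0.19 for Pttg1. A fall of at least 1.5-fold that also passed the test was seen for 32 members, where the background share was 3.38%.

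With NAC 53 of the 54 did not pass the test. 1 member, Anln, was lower and 0 were higher, against 9.26% and 8.65% of all genes tested. At an unadjusted p under 0.05 the edgeR counts were 4 lower and 7 higher. The share of all genes at that unadjusted threshold is not given here, and the shares above do not serve as its background. DESeq2 and limma on FPKM, with adjusted p, also gave 1 lower and 0 higher. The median log2 fold change was 0.03, and the members ran from -0.55 to 0.30. Both NAC libraries lay below both controls in 11 members and above both in 14, and the libraries overlapped in 29; the background shares were 28.3% below and 28.3% above. Both comparisons use the same 2 control libraries. Set directly against NAC, PQ was lower in 50 of 54 members and higher in 0, against 15.1% and 15.5% of all genes; the count of higher members was 0 at an unadjusted p under 0.05 and with DESeq2 or limma too.

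The members' CPM (expected counts per 1000000 of the library size, scaled with TMM factors) add up to 9580 and 10172 in the control libraries, 6525 and 5832 with PQ, and 10536 and 9657 with NAC. Mitotic messages thus made up 0.958% and 1.02% of the TMM-scaled library size in control, and 0.652% and 0.583% with PQ. The PQ libraries are the 2 lowest of the 6, and PQ replicate 2 is the lowest. Within the PQ group replicate 2 was below replicate 1 in 46 of 54 members, within NAC in 40 of 54, and within control replicate 2 was above replicate 1 in 38 of 54. Most members thus differed between the 2 libraries of a group in the same direction, by a median log2 of -0.14 in PQ, -0.09 in NAC and 0.08 in control. Over all genes tested replicate 2 was the higher in 50.1% with PQ, 50.2% with NAC and 48.9% in control. Without PQ replicate 2 all 54 estimates with PQ against control were still below 0. Their median log2 fold change was then -0.53, against -0.64 with all 6 libraries, and the median over all genes tested was -0.003.

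**Figure D1:**
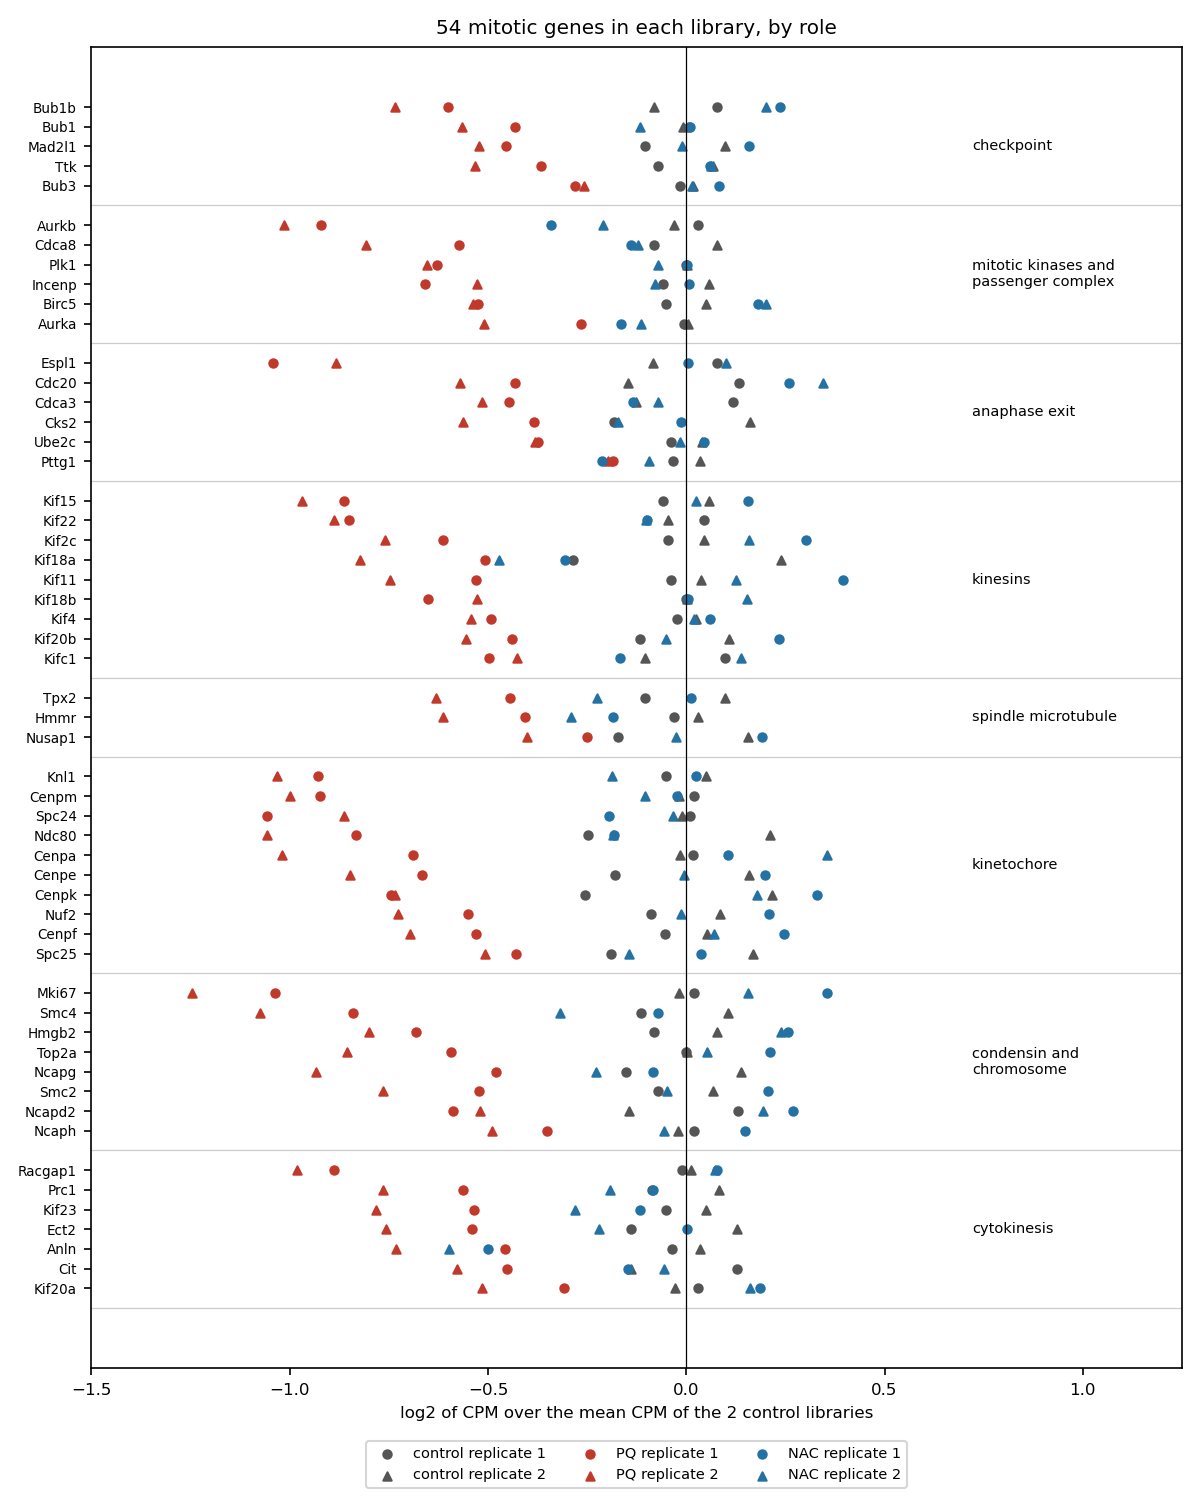
CPM of each of the 54 members in each of the 6 libraries, as log2 of the value over the mean of the 2 control libraries, with the genes grouped by role and circles and triangles for replicates 1 and 2. Both PQ libraries lie left of both control libraries for every member, and the NAC libraries lie on both sides of the control line; for Anln both lie left of it, among the PQ values.

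Depth was even, with 9680436 to 10698241 expected counts per library. Of the 11 markers of neural stem cells and radial glia 9 were tested, with summed levels of 6256 to 6349 CPM in control, 6602 to 6879 with PQ and 4538 to 4616 with NAC; Nes, Sox2, Vim and Fabp7 were all present, and Hes5 and Prom1 were at or near 0 in each library. Astrocyte markers summed to 126 to 137 CPM in control, 138 to 148 with PQ and 257 to 258 with NAC, and 6 of 6 were tested. Of these, 4 were higher with NAC and 1, Aldh1l1, was higher with PQ. Aldh1l1 stood at 4.24 and 3.53 CPM in control, 7.39 and 10.1 with PQ and 3.43 and 2.08 with NAC. Its log2 fold change was 1.17 with PQ (SE 0.26, edgeR adjusted p = 0.00389) and -0.49 with NAC, where it did not pass. Neuron markers (3 of 7 tested, Rbfox3 at 0 throughout) gave 199 to 210 CPM in control, 183 to 194 with PQ and 322 to 361 with NAC, nearly all of it from Map2, a microtubule-associated protein of dendrites that rose with NAC (log2 fold change 0.77, SE 0.09, edgeR adjusted p = 1.43e-05). Tubb3, a tubulin of neurons at no more than 4.26 CPM, fell with PQ and with NAC (log2 fold change -1.65 and -2.27). Oligodendrocyte lineage markers (4 of 7 tested, Mog at 0 throughout) gave 1583 to 1800 CPM in control, 1575 to 1775 with PQ and 1908 to 2132 with NAC, where Olig1 and Pdgfra rose by 0.41 and 0.40 on the log2 scale. Microglia, endothelial and fibroblast lists reached at most 11.5, 2.19 and 31.8 CPM. The part of these shifts in the changes of the mitotic genes was not tested.

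Many mitotic genes are known to share a promoter layout: a short element called CHR next to the start of transcription, and CCAAT boxes a few turns of the helix upstream. CHR is bound by the DREAM complex in resting cells and by B-Myb and FoxM1 in G2, and CCAAT by NF-Y. RefSeq promoter windows on GRCm38.p6, the build that mm10 names, were matched for 48 of the 54 members, in 53 windows from 250 bases before to 50 after the start. Aurkb, Incenp, Kif20a, Smc4, Spc24 and Tpx2 were not analysed for promoter letters here. The letters TTTGAA or TTCGAA, searched on both strands, were present in 75.5% of the members' windows, against 13.8% of the windows of all genes tested. CCAAT, on both strands, was present in 73.6% against 38.1%, and both kinds together in 64.2% against 5.73%. TTCGAA is its own reverse complement, and a CCAAT box can share 1 end base with TTTGAA. The CHR letters began within 50 bases of the start in 66.0% of the members' windows and in 3.5% of those of all genes tested. A match is a stretch of letters and not a measured binding site, and no binding was measured here.

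Shown are the 120 bases before the start for 6 members, 5′ to 3′ on the gene's strand. Capitals mark the CHR letters (TTTGAA or TTCGAA, or TTCAAA on the other strand) and CCAAT (or ATTGG on the other strand). The first 5 hold both, and the last, Nusap1, is shown as a member whose window holds neither. The coordinates are on GRCm38.p6.
Cdc20, chr4:118437344-118437463, minus strand: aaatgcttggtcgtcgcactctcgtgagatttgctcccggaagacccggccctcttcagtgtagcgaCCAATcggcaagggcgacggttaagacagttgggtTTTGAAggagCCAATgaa
Kif11, chr19:37376262-37376381, plus strand: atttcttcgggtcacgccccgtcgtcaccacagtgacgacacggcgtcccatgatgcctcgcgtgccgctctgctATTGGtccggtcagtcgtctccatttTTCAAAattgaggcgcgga
Hmgb2, chr8:57511723-57511842, plus strand: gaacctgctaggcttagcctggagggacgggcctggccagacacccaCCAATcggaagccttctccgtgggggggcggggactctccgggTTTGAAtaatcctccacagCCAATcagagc
Top2a, chr11:99024190-99024309, minus strand: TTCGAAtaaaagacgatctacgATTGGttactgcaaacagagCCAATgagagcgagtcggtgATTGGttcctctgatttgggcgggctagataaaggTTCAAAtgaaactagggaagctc
Bub3, chr7:131560250-131560369, plus strand: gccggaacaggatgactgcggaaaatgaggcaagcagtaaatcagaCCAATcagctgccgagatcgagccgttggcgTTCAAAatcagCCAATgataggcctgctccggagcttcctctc
Nusap1, chr2:119618178-119618297, plus strand: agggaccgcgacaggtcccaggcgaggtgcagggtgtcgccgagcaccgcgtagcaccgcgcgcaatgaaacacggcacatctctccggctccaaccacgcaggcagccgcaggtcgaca
Cdc20 carries TTTGAA at -18, counted from the start to the first base of the match, and CCAAT at -53 and -8. In Kif11 the CHR letters lie at -19 and a CCAAT box at -45, and in Hmgb2 at -30 with CCAAT at -73 and -11 in the bases shown. Top2a has CHR letters at -120 and -23 with 3 CCAAT boxes between them, at -98, -78 and -58. Bub3 has 2 overlapping windows, and the bases before its upstream start are shown, with CHR letters at -43 between CCAAT boxes at -74 and -32. Of the 48 members with a window, the 37 with CHR letters had a median log2 fold change of -0.64 with PQ and the 11 without them of -0.51. Of the 37 with the letters 37 passed the test with PQ, and of the 11 without them 9 passed. The difference between these sets was not tested.

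**Figure D2:**
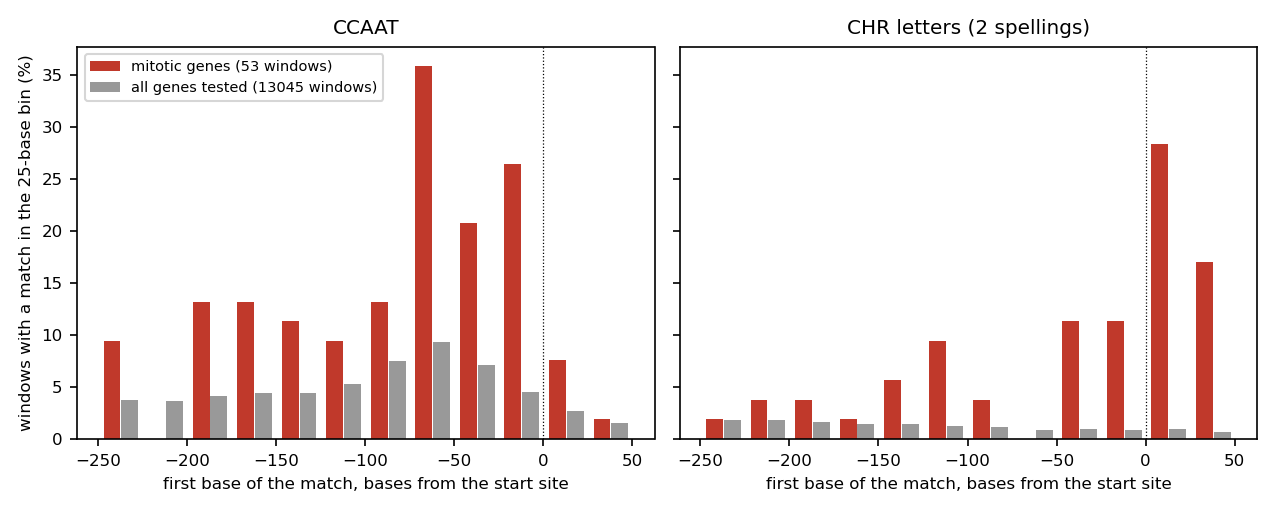
Share of promoter windows with a match starting in each 25-base bin, from 250 bases before to 50 after the start site (x axis, bases; y axis, percent of windows), for the 53 windows of the members and the 13045 windows of all genes tested. CHR letters of the members peak in the first bin after the start, at 28.3% of windows against 0.935% of all, and CCAAT in the bin from -75, at 35.8% against 9.28%.

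The checkpoint genes fell together with PQ, 5 of 5, with a median log2 fold change of -0.49. Bub1b encodes BubR1, the checkpoint kinase that holds back Cdc20, and stood at 119 and 107 CPM in control, 74.4 and 67.9 with PQ and 133 and 129.7 with NAC. It was the most changed of the 5 (log2 fold change -0.67, SE 0.10, edgeR adjusted p = 0.000198). Both PQ libraries were low and both NAC libraries lay just above control. Bub3, which docks BubR1 and Bub1 on kinetochores, was the least changed, at 179.6 and 184 CPM in control, 149.5 and 152 with PQ and 192 and 183 with NAC (log2 fold change -0.27, SE 0.09, edgeR adjusted p = 0.0475). Its PQ values were below the other 4 libraries without overlap, but its call was lost when any 1 of the 6 libraries was left out (edgeR adjusted p 0.0638 to 0.211). Bub1, the kinase that recruits the checkpoint to the kinetochore, Mad2l1, which binds and inhibits Cdc20, and Ttk, the kinase Mps1 at the head of the checkpoint, had log2 fold changes of -0.50, -0.49 and -0.45. These 3 calls were lost without PQ replicate 2 (edgeR adjusted p 0.0609 to 0.124).

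All 6 mitotic kinase and passenger complex genes fell with PQ, with a median log2 fold change of -0.62. Aurkb, the kinase of the chromosomal passenger complex that corrects wrong attachments, was 104 and 99.7 CPM in control, 53.8 and 50.5 with PQ and 80.4 and 88.1 with NAC. Its fall with PQ was the largest of this role (log2 fold change -0.97, SE 0.10, edgeR adjusted p = 5.01e-06), and its NAC libraries lay between the other groups without passing the test against control (log2 fold change -0.27, SE 0.10, edgeR adjusted p = 0.0595). Birc5, or survivin, which brings the complex to the centromere, was 52.6 and 56.4 CPM in control, 37.9 and 37.5 with PQ and 61.7 and 62.7 with NAC (log2 fold change -0.53, SE 0.11, edgeR adjusted p = 0.00189). Here control and NAC were both high, with NAC above control. Plk1, which drives spindle assembly and mitotic entry, was 204 and 205 CPM in control, 132 and 130.01 with PQ and 205 and 195 with NAC (log2 fold change -0.64, SE 0.09, edgeR adjusted p = 0.000117). Control and NAC libraries of Plk1 overlapped and differed little within a group. Aurka, which matures the spindle poles, moved least in this role, at 63.4 and 63.8 CPM in control, 52.9 and 44.7 with PQ and 56.7 and 58.7 with NAC (log2 fold change -0.38, SE 0.11, edgeR adjusted p = 0.02). All 4 treated libraries of Aurka were below control, and its call with PQ was lost without control replicate 2 (edgeR adjusted p = 0.0514) or PQ replicate 2 (edgeR adjusted p = 0.281). Incenp, the scaffold of the passenger complex, and Cdca8, or borealin, another targeting subunit, fell by 0.59 and 0.69 on the log2 scale.

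Of the 6 genes of the anaphase switch 5 fell with PQ. Espl1, the separase that cuts cohesin, was 52.0 and 46.5 CPM in control, 23.9 and 26.7 with PQ and 49.4 and 52.9 with NAC. This was the largest change of the role (log2 fold change -0.96, SE 0.12, edgeR adjusted p = 2.77e-05), and the PQ libraries held about the same level as each other. Pttg1, the securin that keeps separase inactive until anaphase, was 87.2 and 91.4 CPM in control, 78.6 and 77.9 with PQ and 77.1 and 83.7 with NAC (log2 fold change -0.19, SE 0.10, edgeR adjusted p = 0.195). Its PQ and NAC libraries overlapped, all 4 lay below both controls, and it was the least changed of all 54 members. Cdc20, which activates the cyclosome, was 94.2 and 77.6 CPM in control, 63.7 and 57.9 with PQ and 103 and 109 with NAC (log2 fold change -0.50, SE 0.11, edgeR adjusted p = 0.00414). It was low with PQ and had the highest estimate of any member with NAC, where it did not pass (log2 fold change 0.30, SE 0.11, edgeR adjusted p = 0.0594). Ube2c, the ubiquitin-conjugating enzyme of the cyclosome, Cks2, a small partner of cyclin-dependent kinases, and Cdca3, an adaptor in the destruction of the kinase Wee1, fell by 0.38, 0.47 and 0.48 on the log2 scale. Without PQ replicate 2 the calls of Cdc20, Ube2c, Cks2 and Cdca3 were lost (edgeR adjusted p 0.0661 to 0.156), as were those of Ube2c and Cks2 without control replicate 2 (0.0502 and 0.130) and of Ube2c without PQ replicate 1 (0.0688).

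The 9 kinesins, motors that slide, sort or shorten microtubules, all fell with PQ, with a median log2 fold change of -0.64. Kif15, which backs up Kif11 in holding the spindle poles apart, fell most, from 114 and 123 CPM in control to 65.1 and 60.4 with PQ (log2 fold change -0.92, SE 0.10, edgeR adjusted p = 9.07e-06), with 132 and 120.4 in NAC. Kif11, the main motor of pole separation, was 185 and 195 CPM in control, 132 and 113 with PQ and 249.99 and 208 with NAC (log2 fold change -0.64, SE 0.11, edgeR adjusted p = 0.000538). In both genes the PQ libraries were far below the rest, and NAC replicate 1 was the highest of the 6. Kif4, a chromokinesin of the spindle midzone, was 96.2 and 99.4 CPM in control, 69.5 and 67.1 with PQ and 102 and 99.2 with NAC (log2 fold change -0.52, SE 0.10, edgeR adjusted p = 0.00102), with control and NAC overlapping. Kifc1, which gathers microtubule minus ends into poles, moved least, at 48.4 and 42.1 CPM in control, 32.1 and 33.6 with PQ and 40.3 and 49.8 with NAC (log2 fold change -0.46, SE 0.13, edgeR adjusted p = 0.0169). Its NAC libraries spread across the control range, and its call was lost without control replicate 1, PQ replicate 1 or PQ replicate 2 (edgeR adjusted p 0.0886 to 0.107). Kif22 and Kif2c, which push chromosome arms and take down microtubule ends, fell by 0.87 and 0.69 on the log2 scale. Kif18a and Kif18b, which limit microtubule length, fell by 0.66 and 0.59, and Kif20b, a motor of late cytokinesis, by 0.50 on the log2 scale. The calls of Kif18a and Kif20b were lost without PQ replicate 2 (edgeR adjusted p 0.0908 and 0.0901), and that of Kif18a without control replicate 2 (0.0506).

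Of the 3 spindle microtubule proteins 2 fell with PQ. Tpx2, which activates Aurka and nucleates microtubules near chromosomes, was 391 and 449 CPM in control, 309 and 271 with PQ and 423 and 359.6 with NAC (log2 fold change -0.54, SE 0.11, edgeR adjusted p = 0.00169). PQ libraries were lowest, and NAC replicate 2 lay below both controls. Nusap1, which bundles microtubules around chromosomes, was 167 and 209.6 CPM in control, 158 and 143 with PQ and 215 and 185 with NAC (log2 fold change -0.32, SE 0.11, edgeR adjusted p = 0.0582). Both PQ values of Nusap1 were below both controls, but the controls differed from each other by more than PQ replicate 1 did from control replicate 1, and without control replicate 1 the gene passed (log2 fold change -0.48, edgeR adjusted p = 0.00436). It also passed with no filter on low counts and in a robust fit. Hmmr, which links the poles to microtubules, fell by 0.51 on the log2 scale. The calls of Tpx2 and Hmmr were lost without PQ replicate 2 (edgeR adjusted p 0.0605 and 0.0630).

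The kinetochore genes had the lowest median of the 8 roles with PQ, -0.80, and 10 of 10 fell. Knl1, the platform that binds the checkpoint proteins, was 113 and 121 CPM in control, 61.5 and 57.3 with PQ and 119 and 103 with NAC. It was the second most changed of the 54 (log2 fold change -0.98, SE 0.10, edgeR adjusted p = 6.57e-06). Ndc80, the long arm that grips microtubules, was 77.1 and 106 CPM in control, 51.4 and 44.0 with PQ and 80.7 and 80.6 with NAC (log2 fold change -0.94, SE 0.13, edgeR adjusted p = 9.6e-05). Control replicate 2 of Ndc80 stood above the other 5 libraries. Cenpa, the histone that marks the centromere, was 49.5 and 48.4 CPM in control, 30.4 and 24.1 with PQ and 52.6 and 62.6 with NAC (log2 fold change -0.85, SE 0.13, edgeR adjusted p = 0.000236). Cenpe, the kinesin that carries chromosomes to the spindle equator, was 189 and 238 CPM in control, 134 and 119 with PQ and 245 and 213 with NAC (log2 fold change -0.76, SE 0.12, edgeR adjusted p = 0.000239). Both were lowest in PQ replicate 2. Spc25, a subunit at the inner end of the Ndc80 arm, moved least, at 61.3 and 78.5 CPM in control, 51.9 and 49.2 with PQ and 71.7 and 63.3 with NAC (log2 fold change -0.47, SE 0.12, edgeR adjusted p = 0.0117). Its call was lost without control replicate 2 (edgeR adjusted p = 0.163) or PQ replicate 2 (edgeR adjusted p = 0.124). Among the others, Cenpm fell by 0.96, Spc24 by 0.95, Cenpk by 0.74, Nuf2, the partner of Ndc80, by 0.64 and Cenpf, a large protein of the outer kinetochore, by 0.61 on the log2 scale. Cenpk, a subunit of the inner kinetochore like Cenpm, had the lowest level of all members, 10.3 to 21.7 CPM, and its call was lost without control replicate 2 (edgeR adjusted p = 0.108) or PQ replicate 2 (edgeR adjusted p = 0.0647).

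The 8 genes of condensin and the chromosome all fell with PQ, with a median log2 fold change of -0.70. Mki67, which coats mitotic chromosomes and is the common stain for cycling cells, was 1082 and 1055 CPM in control, 520.4 and 450.2 with PQ and 1366 and 1189.6 with NAC. It was the most changed of the 54 with PQ (log2 fold change -1.14, SE 0.10, edgeR adjusted p = 7.94e-07), and both NAC libraries lay above both controls (log2 fold change 0.26, SE 0.10, edgeR adjusted p = 0.0735). Top2a, the topoisomerase that untangles sister chromatids, was 872 and 873 CPM in control, 579 and 482 with PQ and 1009.9 and 904 with NAC (log2 fold change -0.72, SE 0.10, edgeR adjusted p = 8.86e-05). Hmgb2, a chromatin protein abundant in cycling progenitors, was 422 and 472 CPM in control, 279 and 257 with PQ and 534 and 528 with NAC (log2 fold change -0.74, SE 0.09, edgeR adjusted p = 3.11e-05). In these 3 genes every PQ library was below every control and every NAC library above every control. Smc2, an arm shared by both condensins, was 283 and 312 CPM in control, 207 and 175 with PQ and 343 and 287 with NAC (log2 fold change -0.64, SE 0.11, edgeR adjusted p = 0.000524). Ncapd2, a subunit of condensin I, was 156 and 129 CPM in control, 94.9 and 99.4 with PQ and 172 and 163 with NAC (log2 fold change -0.55, SE 0.10, edgeR adjusted p = 0.00125). In Smc2 the NAC libraries surrounded control replicate 2, and in Ncapd2 both lay above control. Ncaph, which closes the condensin ring, moved least, at 119 and 116 CPM in control, 92.1 and 83.7 with PQ and 130.1 and 113 with NAC (log2 fold change -0.42, SE 0.10, edgeR adjusted p = 0.00792). Control and NAC overlapped in Ncaph, and its call with PQ was lost without PQ replicate 2 (edgeR adjusted p = 0.141), as was that of Ncapg (0.0586). Smc4, the other condensin arm, and Ncapg, a further condensin I subunit, fell by 0.95 and 0.69 on the log2 scale.

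All 7 cytokinesis genes fell with PQ, with a median log2 fold change of -0.65. Racgap1, which with Kif23 makes the centralspindlin complex of the midzone, was 199 and 202 CPM in control, 108 and 101 with PQ and 211 and 211 with NAC (log2 fold change -0.94, SE 0.09, edgeR adjusted p = 2.89e-06). Its 4 control and NAC libraries lay within a narrow range, with PQ far below. Anln, or anillin, the scaffold that ties actin and septins to the furrow, was 353 and 371 CPM in control, 263 and 218 with PQ and 256 and 239 with NAC (log2 fold change -0.59, SE 0.10, edgeR adjusted p = 0.000539). All 4 treated libraries were below control, and those of PQ and NAC overlapped. Cit, the kinase of the midbody, was 53.2 and 44.2 CPM in control, 35.6 and 32.6 with PQ and 43.9 and 46.8 with NAC (log2 fold change -0.51, SE 0.12, edgeR adjusted p = 0.00605), with control and NAC overlapping. Kif20a, which carries the passenger complex to the midzone, moved least, at 174 and 167 CPM in control, 138 and 119 with PQ and 194 and 190.4 with NAC (log2 fold change -0.41, SE 0.10, edgeR adjusted p = 0.00705). Its NAC libraries lay above control and its PQ libraries below. Prc1, the midzone bundler, Kif23, the motor of centralspindlin, and Ect2, which activates RhoA at the furrow, fell by 0.66, 0.65 and 0.65 on the log2 scale. The calls of Kif20a and Cit were lost without PQ replicate 2 (edgeR adjusted p 0.168 and 0.0990), and that of Cit without control replicate 1 (0.0568).

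**Figure D3:**
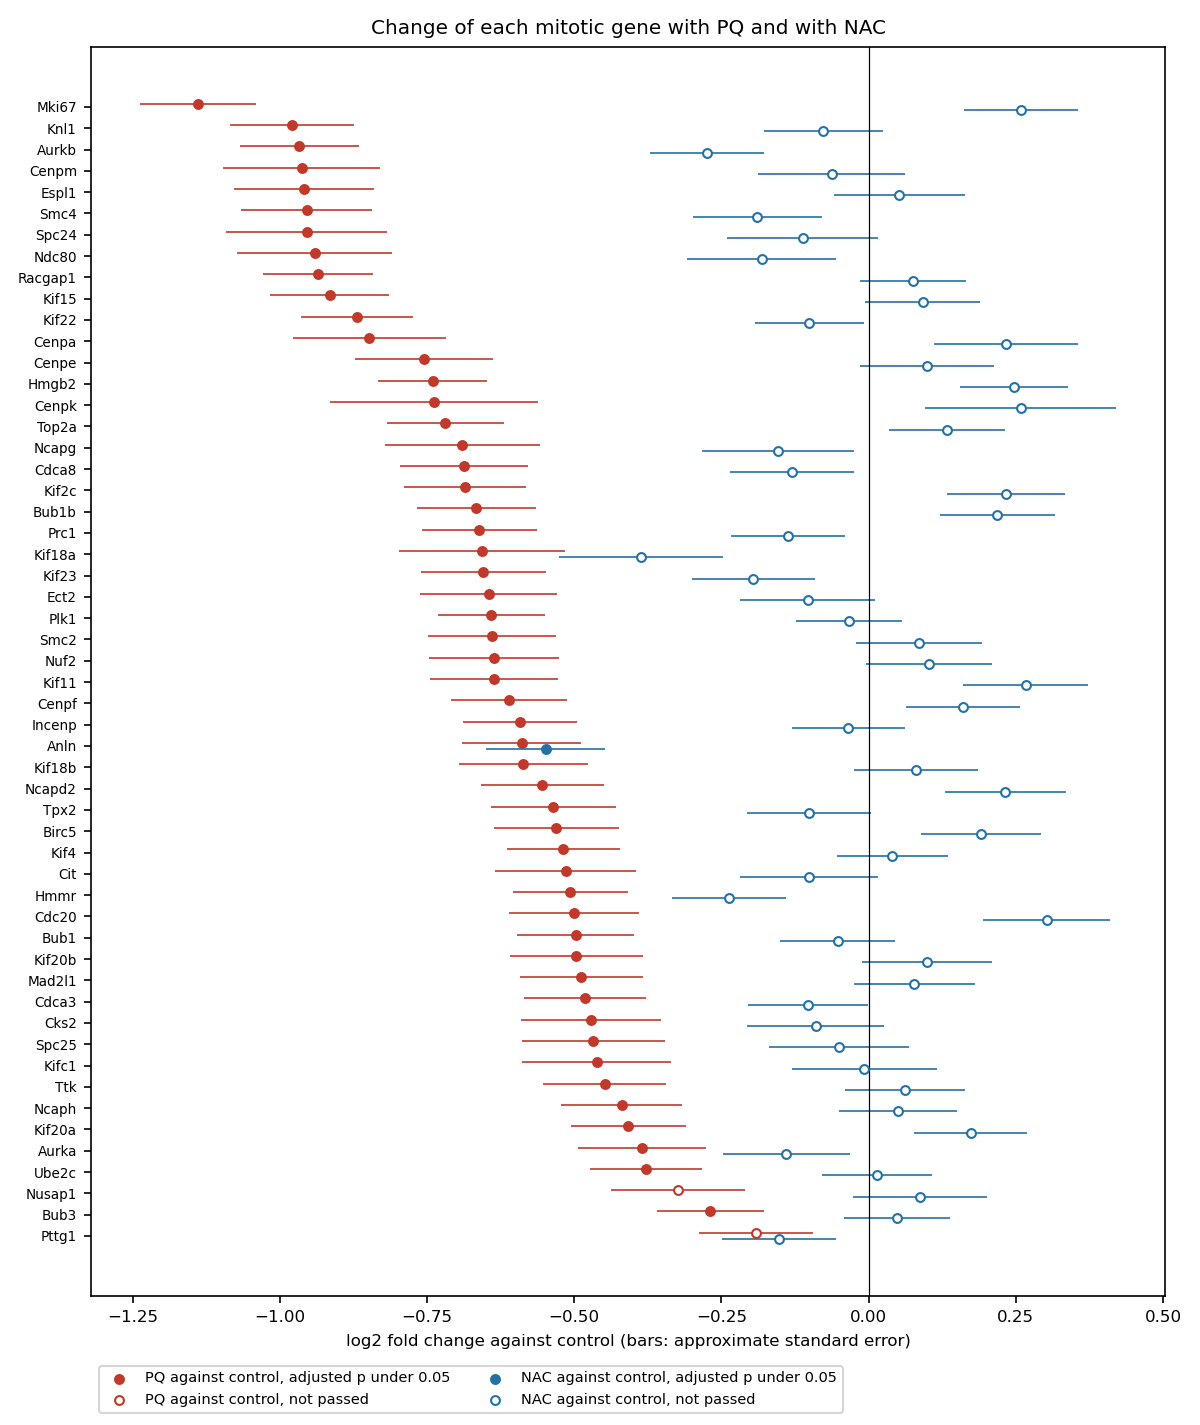
Log2 fold change of each of the 54 members with PQ (red) and with NAC (blue) against control, with approximate standard errors and filled points where the edgeR adjusted p was under 0.05, ordered by the change with PQ. Of the red points 52 are filled and run from -1.14 to -0.27, and of the blue points 1, Anln, is filled.

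Levels within a protein complex can be set side by side per transcript length, as FPKM. In the Ndc80 complex the mean FPKM of the 2 controls was 40.8 ± 8.9 (SD) for Ndc80, 46.3 ± 3.7 for Nuf2, 23.4 ± 0.35 for Spc24 and 50.6 ± 8.7 for Spc25. With PQ they were 21.7 ± 2.1, 30.5 ± 2.2, 12.3 ± 1.4 and 37.3 ± 0.96, with n = 2 throughout. Spc24 was the lowest of the 4 subunits in all 3 groups. In centralspindlin the messages of Racgap1 stood above those of Kif23 in control, PQ and NAC. In condensin I Smc4 was the highest of the 5 subunits in each group, at 84.0 ± 8.4 in control and 44.3 ± 4.5 with PQ. The 4 passenger complex subunits lay close together in control, with means from 48.7 for Cdca8 to 52.7 for Incenp and SDs between libraries of 1.8 to 3.5. They ran from 26.8 for Aurkb to 35.7 for Incenp with PQ, and from 43.8 for Aurkb to 56.8 for Birc5 with NAC, so the subunits spread further in both treated groups than in control. Those spreads were not tested.

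**Figure D4:**
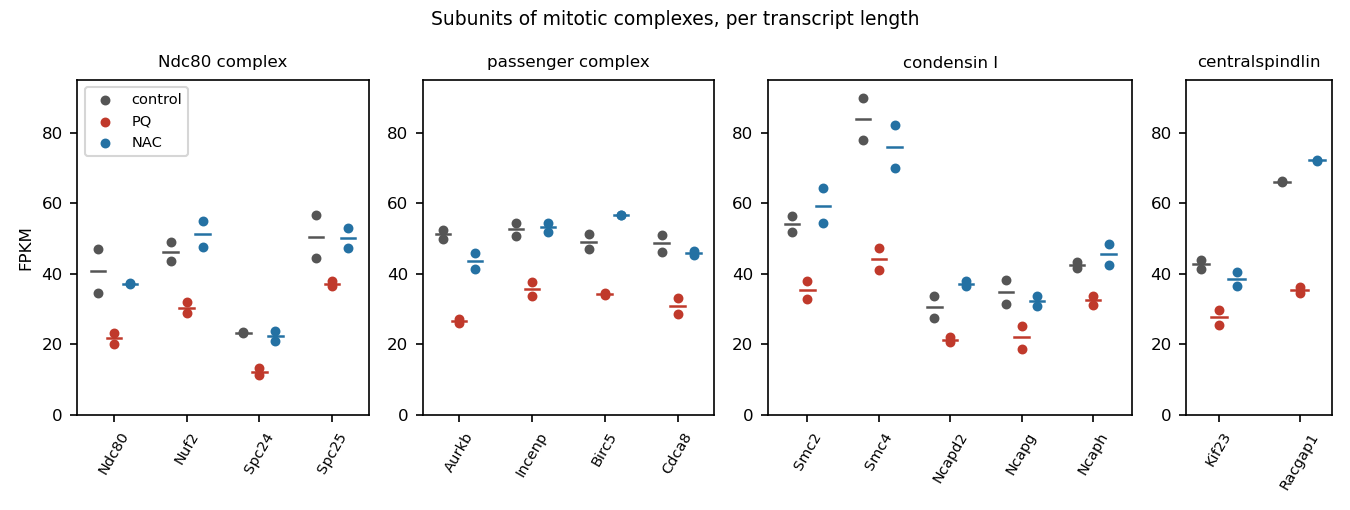
FPKM of the subunits of 4 mitotic complexes in each of the 6 libraries (points) with group means (bars), on a linear axis from 0. PQ points lie below the control points for every subunit, and the passenger subunits, close in control, spread from 26.8 to 35.7 with PQ and from 43.8 to 56.8 with NAC.

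Anln was the 1 member that fell with NAC (log2 fold change -0.55, SE 0.10, edgeR adjusted p = 0.000721), and it passed in each of the 14 alternative analyses. The direct test of PQ against NAC did not pass (log2 fold change -0.04, SE 0.10, edgeR adjusted p = 0.799). The estimate turned positive without PQ replicate 2 or NAC replicate 1 (0.09 and 0.01). Cdc20, Aurkb, Kif18a, Hmgb2, Mki67 and Kif11 came nearest to the threshold of the members that did not pass with NAC, with adjusted p from 0.0594 to 0.0929. 4 of them, Cdc20, Hmgb2, Kif11 and Mki67, passed as higher with library size alone in place of TMM. With no filter on low counts Cdc20 and Mki67 passed as higher and Kif18a as lower. Leaving out 1 library gave calls with NAC for Cdc20, Ncapd2 (both higher), Kif18a and Ndc80 (both lower) without control replicate 1, for Hmgb2 without control replicate 2 and for Kif11 without NAC replicate 2.

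In PQ against NAC, 50 of the 54 members were lower, and the median log2 fold change over all 54 was -0.60. Of the 50, 28 were lower by at least 1.5-fold, against 6.64% of all genes. In 52 of the 54 both PQ libraries lay below both NAC libraries (background 32.9%). Mki67 led (log2 fold change -1.40, SE 0.10, edgeR adjusted p = 1.64e-08), followed by Cenpa (log2 fold change -1.08, SE 0.13, edgeR adjusted p = 5.14e-06), Espl1 (log2 fold change -1.01, SE 0.12, edgeR adjusted p = 4.16e-06) and Racgap1 (log2 fold change -1.01, SE 0.09, edgeR adjusted p = 2.63e-07). The members that did not pass were Anln, Pttg1, Aurka and Kif18a, with log2 fold changes of -0.04, -0.04, -0.24 and -0.27. Pttg1's estimate turned to 0.02 without NAC replicate 2, and Kif18a passed without control replicate 1 or 2 (edgeR adjusted p 0.0401 and 0.0417). Without PQ replicate 2, 39 members passed, and the calls of Bub1, Bub3, Cks2, Cdca3, Tpx2, Nusap1, Hmmr, Spc25, Ncapg, Kif23 and Cit were lost (edgeR adjusted p 0.0531 to 0.384). Those of Bub3, Cks2, Tpx2, Nusap1, Hmmr and Spc25 were lost without NAC replicate 1 as well (edgeR adjusted p 0.0889 to 0.246), those of Cdca3, Kifc1, Hmmr and Cit without NAC replicate 2 (0.0632 to 0.173), and those of Bub3 and Kifc1 without PQ replicate 1 (0.0902 and 0.0762).

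Counting limits touch 24 members. For 15 of them the deposited counts were not whole numbers, so they are estimates that can share reads with other genes, and 11 share exonic bases with another measured gene, 10 of these on the opposite strand. The largest overlaps were those of Kif20a with Cdc23 (29.3% of its exonic bases), Ube2c with Tnnc2 (22.8%) and Kif4 with Pdzd11 (15.1%). Whether the authors' counting used the strand is not given in the sources used here, so the values of these genes may hold reads of their neighbours. Of the other 30 members, with whole counts and no shared exon, 30 fell with PQ.

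The wider mitotic network was measured through 122 further genes in 7 lists, all of them tested. With PQ 55 were lower and 3 were higher, with a median log2 fold change of -0.33, where the background shares were 8.80% and 9.07%. With NAC 4 were lower and 6 higher, both shares below the background of 9.26% and 8.65%. In PQ against NAC 78 were lower and 5 higher, against 15.1% and 15.5% of all genes tested. By list, of other spindle genes 12 of 18 fell, of cohesin and condensin II genes 10 of 16, of mitotic entry genes 8 of 14, of other kinetochore genes 13 of 27, of other cytokinesis genes 3 of 10, of the transcription factors of the cycle 6 of 20 and of cyclosome subunits and regulators 3 of 17. The last share rests on few genes and is the nearest to the background of 8.80%.

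Aspm, which focuses spindle poles and whose loss causes microcephaly, went from 206 and 252 CPM in control to 126 and 119 with PQ and 264 and 231 with NAC (log2 fold change -0.90, SE 0.11, edgeR adjusted p = 2.13e-05). Plk4, the kinase of centriole duplication, fell by 0.85, and Kif14, a motor of the midbody, by 0.85 on the log2 scale. Kntc1, a subunit of the complex that brings dynein to kinetochores, and Hjurp, the chaperone that loads Cenpa, fell by 0.72 and 0.67 on the log2 scale. Ncaph2 and Ncapg2 of condensin II fell by 0.72 and 0.69. Ccna2 and Ccnb2, the cyclins of mitotic entry, fell by 0.82 and 0.91. Mybl2, or B-Myb, and E2f8, a repressor of the E2F family, fell by 1.04 and 0.96 on the log2 scale. Fbxo5, which holds the cyclosome inactive before mitosis, fell by 0.59, and Ube2s, which lengthens the ubiquitin chains it makes, by 0.41; without PQ replicate 2 the Ube2s call was lost (edgeR adjusted p = 0.0778).

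3 genes of the wider lists rose with PQ. Zwint, which joins the Knl1 arm to the checkpoint's dynein adaptor, was 123 and 126 CPM in control, 172 and 174 with PQ and 167 and 167 with NAC (log2 fold change 0.47, SE 0.09, edgeR adjusted p = 0.00142), and all 4 treated libraries lay above control. Ckap2, a microtubule stabiliser, was 199.7 and 214 CPM in control, 268 and 268 with PQ and 237 and 218 with NAC (log2 fold change 0.38, SE 0.09, edgeR adjusted p = 0.00815), highest with PQ and with NAC between, and the call was lost without PQ replicate 1 (edgeR adjusted p = 0.0562) or 2 (0.0802). Pdcd6ip, or ALIX, which acts in the final cut between daughter cells, was 184 and 182 CPM in control, 232 and 219 with PQ and 168 and 163 with NAC (log2 fold change 0.30, SE 0.09, edgeR adjusted p = 0.0278), and its call was lost without any 1 control or PQ library (edgeR adjusted p 0.0618 to 0.191) and in a fit with the 2 runs of title numbers, 8 to 10 and 11 to 13, as a block (0.0542). Arhgef2, a RhoA activator of the furrow, was low with both agents, at 194 and 290.1 CPM in control, 135 and 139.8 with PQ and 134 and 137 with NAC (log2 fold change -0.82 with PQ and -0.83 with NAC).

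Against NAC, 5 of the wider genes were higher with PQ. Pdcd6ip, the cyclosome subunits Anapc4 and Anapc10, Ppp2r2a (a phosphatase subunit that counters Cdk1) and Rb1 (the retinoblastoma repressor) differed by 0.45, 0.36, 0.39, 0.58 and 0.35 on the log2 scale. Without NAC replicate 2 the calls of Anapc4, Anapc10 and Rb1 were lost (edgeR adjusted p 0.0725 to 0.147), and without PQ replicate 1 also all 3 (0.0556 to 0.214). Anapc4 was further lost without PQ replicate 2 (edgeR adjusted p = 0.0596) and Anapc10 without NAC replicate 1 (0.0656). With DESeq2 the calls of Anapc10 and Rb1 were lost as well (DESeq2 adjusted p 0.0568 and 0.0533), and so was that of Rb1 in limma on log2 FPKM with a pseudocount of 1 or 0.1 (limma adjusted p 0.0615 and 0.0606). E2f1, a driver of S phase, fell with NAC from 68.2 and 53.6 to 36.9 and 42.1 CPM (log2 fold change -0.63, SE 0.13, edgeR adjusted p = 0.00164) and stood at 49.8 and 45.2 with PQ (log2 fold change -0.36, SE 0.12, edgeR adjusted p = 0.0533), where it passed without control replicate 2 (0.00619), with no filter on low counts (0.0204) and in a robust fit (0.0443). The other wider genes lower with NAC were Arhgef2, Ncaph2 (-0.33) and Ppp2r2a (-0.43). The Ncaph2 call was lost without NAC replicate 1 or 2 (edgeR adjusted p 0.120 and 0.0672), and the Ppp2r2a call without NAC replicate 2 (0.0827). The Ncaph2 call was also lost in both limma analyses of FPKM (limma adjusted p 0.0512 and 0.0535).

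The 6 wider genes higher with NAC include Zwint (log2 fold change 0.42, SE 0.09, edgeR adjusted p = 0.00298). The other 5 were chosen for naming after their values were seen. E2f7, a repressor of the E2F family, stood at 28.2 and 21.8 CPM in control, 17.2 and 19.0 with PQ and 37.1 and 36.0 with NAC and rose with NAC (log2 fold change 0.55, SE 0.14, edgeR adjusted p = 0.00922). E2f3, an activator of that family, Tfdp1, the partner through which E2F proteins bind DNA, Numa1, which gathers microtubules at the poles, and Cdk5rap2, a centrosome protein, rose by 0.35, 0.28, 0.30 and 0.36 on the log2 scale. Each of these 5 calls was lost without 1 or more single libraries: E2f3 and Tfdp1 without any 1 except control replicate 1 (edgeR adjusted p 0.0563 to 0.269), E2f7 without control replicate 2 or NAC replicate 1 (0.0952 and 0.0634), Numa1 without control replicate 2 or NAC replicate 2 (0.0988 and 0.216), and Cdk5rap2 without NAC replicate 1 (0.0719). E2f3 was further lost with DESeq2 (DESeq2 adjusted p = 0.112), in both limma analyses (limma adjusted p 0.0745 and 0.0731) and, like Tfdp1, with only the 2 groups compared (edgeR adjusted p 0.0540 and 0.0655). E2f3, Tfdp1 and Numa1 were lost with the runs of title numbers as a block (edgeR adjusted p 0.0652, 0.0806 and 0.0565).

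**Figure D5:**
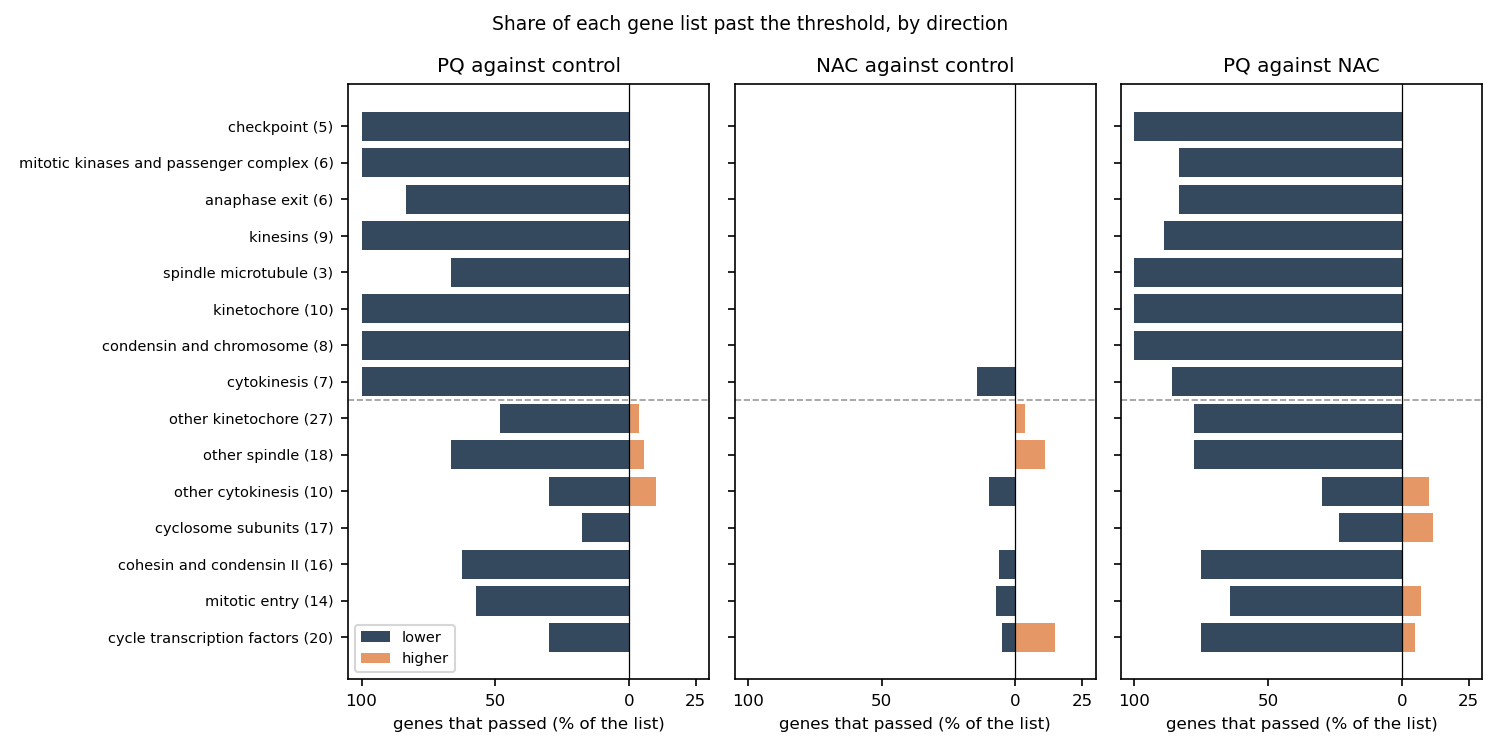
Share of each gene list lower (dark, to the left) or higher (orange, to the right) at an edgeR adjusted p under 0.05 in each of the 3 comparisons, in percent of the list, with list sizes in brackets. The 8 roles of the 54 members stand above the dashed line and the 7 wider lists below it, where 3 of 17 cyclosome genes and 12 of 18 other spindle genes fell with PQ.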

How the data were processed

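RNA was sequenced on the BGISEQ-500 platform from 6 libraries after TRIZOL extraction, per the labels' protocols, which list rRNA depletion and oligo dT selection without saying which was used. Each deposited table lists genes with their expected count and FPKM, per the file headers. Tools given without a role are RSEM, Bowtie2 2.2.5 and HISAT2 2.0.4, with the mm10 genome, per the submitters' processing notes. Expected counts, which the authors deposited as estimates (20.9% to 21.4% of the values in a library are not whole), were rounded to whole numbers, and a gene that a table does not list was set to 0. FPKM values were used as deposited by the authors for levels per length and in 2 alternatives.

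Genes were filtered with filterByExpr (minimum count 10, minimum total 15), scaled by TMM and fitted with edgeR 4.0.16 (quasi-likelihood, 1 mean per group, all 6 libraries, 3 residual degrees of freedom) in R 4.3.3. Benjamini-Hochberg adjustment ran over all 12813 genes tested, and calls were made at 0.05. The approximate SE is the absolute log2 fold change over the square root of the F statistic. The procedure was tested on simulated counts. Alternatives used limma 3.58.1, DESeq2 1.42.0, other filters and scalings, and 6 fits that each left out 1 library. A fit with the runs of title numbers 8 to 10 and 11 to 13 as a block was added after seeing the data. Promoter letters were searched in RefSeq windows.

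The member genes, the 7 wider lists, the cell type markers and the rule for naming genes were chosen with earlier results of these data known. Values in each library were given for a panel of well-known members, for the largest and smallest change with PQ in each role, for the 3 members with the smallest p with NAC, and for members called in a direction that 5 or fewer share. Of each wider list, the 2 genes with the smallest p with PQ and those called against the majority were named.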

Additional observations from a re-analysis of the deposited data

How the results depend on the processing

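The 14 alternatives were another scaling, 2 other filters on low counts, a robust fit, a fit of only the 2 groups compared, DESeq2, limma on log2 FPKM with a pseudocount of 1 or 0.1, and 6 fits without 1 library, in which the lone sample of a group is assumed to vary like the other groups. All 54 member estimates stayed below 0 in PQ against control in each of the 14. Leaving out 1 library moved the count of lower members with PQ between 32 (without PQ replicate 2) and 51, the members lower with NAC between 1 and 3, and the members higher with NAC between 0 and 2. The genes called over the whole table moved between 829 and 2181 in PQ against control, 1338 and 2157 in NAC against control, and 2427 and 4442 in PQ against NAC; these fits test fewer samples. With no filter 2 members were lower and 2 higher with NAC, and with library size only 4 were higher; the cause was not tested. In PQ against NAC the log2 fold change of Pttg1 ran from -0.0977 to 0.019 and that of Anln from -0.187 to 0.09 over these leave-one-out fits, so both changed sign.

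Outside those fits, the calls with PQ that were lost were Bub3 (library size only, no filter, only the 2 groups, both FPKM analyses), Kif18a (DESeq2, FPKM plus 0.1), Aurka (FPKM plus 0.1), and Cks2, Kifc1, Spc25 and Cit (both FPKM analyses). In PQ against NAC, Hmmr and Cit were lost in both FPKM analyses, and Kif18a was gained with no filter and with only the 2 groups. With 2 libraries per group the spread rests on 3 residual degrees of freedom, so a member that did not pass may still have changed. The labels give the groups no shared replicate numbers, but the title numbers run 8 to 10 and 11 to 13 with 1 library of each group in a run, and the labels do not say whether these runs are batches. A fit with the 2 runs as a block, chosen after seeing the data and with 2 residual degrees of freedom, called 51 members lower with PQ (Bub3 was lost), 1 lower with NAC, and 49 lower in PQ against NAC (Hmmr was lost), with 0 higher in each. Over all genes tested, the differences between the second and first run correlated between groups at r = -0.08 (control and PQ), -0.15 (control and NAC) and 0.12 (PQ and NAC), across genes that are not independent.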
